A study of Bos taurus with 6 samples.

Results

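The basic leucine zipper (bZIP) transcription factors and their close partners were compared between bovine granulosa cells treated with LY294002 and cells treated with its vehicle. The family was taken as 42 listed genes of the AP-1, ATF, CREB, CEBP, MAF and PAR groups. A gene was measured when a probe of the array carried its symbol alone, which held for 38 of the 42 factors, among 18010 genes measured in all. Where a factor had several such probes, the brightest was used. CREB5, CEBPB and TEF are not analysed here, and the only probe of ATF5 is shared with NUP62. That shared probe had a mean signal of 5.28 in both groups.

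Granulosa cells were aspirated from small antral follicles, cryopreserved, thawed and cultured with FSH and IGF1, which activate AKT, and both groups received these hormones from seeding on. One group of 3 samples was treated with LY294002 at 50 μM, which blocks PI3K and so the activation of AKT, and the other group of 3 samples with DMSO. The inhibitor was added with fresh medium that lacked the hormones. After a short time most, but not all, of the medium was exchanged for medium with both hormones. The methods describe no wash, so part of the inhibitor may have stayed until the cells were harvested on a later day of culture. RNA of each sample was hybridized to 1 Bovine Gene 1.0 ST array, and the deposited values are log2 signals. The methods describe biological replicates as cells of ovaries collected on different days, and the labels name no animal or day for any array, so the p-values measure the spread between these samples.

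bZIP factors bind DNA as pairs that are held together by a zipper of leucines, and the choice of partner sets which sequence is bound. FOS and JUN proteins form AP-1, which is induced by growth factors and by MAP kinases. CREB and its relatives act downstream of cAMP, the second messenger of FSH, and CEBP factors take part in the ovulatory response of granulosa cells. ATF4, DDIT3, ATF6 and XBP1 carry the responses to amino acid shortage and to unfolded protein. Small MAF proteins lack an activation domain and act through partners such as the NFE2L and BACH factors, while the PAR factors and their antagonist NFIL3 work at the output of the circadian clock.

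LY294002 raised 9 of the 38 measured factors and lowered none past both thresholds. The words rose and fell are used where the p-value of limma, adjusted over all probes, was under 0.05 and the change was at least 1.4-fold, which is 0.485 on the log2 scale. The risen factors were BACH2, FOSL2, NFIL3, HLF, JUND, JUNB, CREB3L2, ATF3 and CREB3, with log2 fold changes from 0.50 to 1.35. They made up 23.7% of the measured factors, where 2.58% of all probes rose and 3.38% fell. The count of 0 that fell with limma stood beside 6 factors with an unadjusted p under 0.05 and a lower signal, and it was also 0 without moderation of the variances. At any fold change, 15 factors had an adjusted p under 0.05, of which 10 were higher and 5 lower, or 39.5% of the factors against 13.3% of all probes. The factors were brighter than most probes, with 33 of 38 above the median signal, and bright probes were called more often. Among the 12203 probes above the median signal, 4.35% rose, 5.31% fell and 22.9% had an adjusted p under 0.05. Among the 18010 genes by their brightest probe, 2.99% rose, 3.99% fell and 15.7% had an adjusted p under 0.05.

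The factors had a median log2 fold change of 0.06, and all probes had one of 0.02. The median size of the change without its sign was 0.29 over the factors and 0.14 over all probes. The 3 LY294002 values lay wholly above or below the 3 DMSO values for 23 factors, 16 higher and 7 lower. This is 60.5% of the factors. The share was 32.7% of all probes, 37.1% of genes by brightest probe and 51% of the probes above the median signal.

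**Figure D1:**
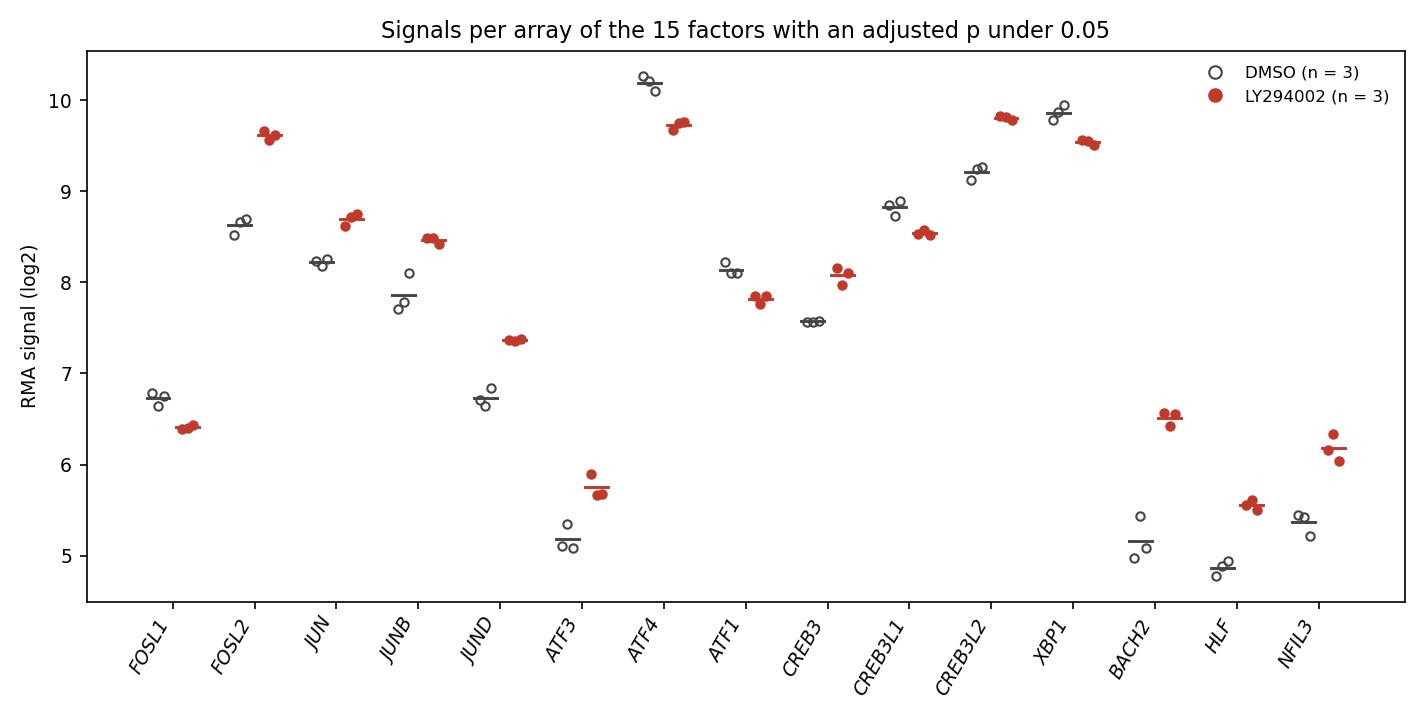
RMA signal (log2) on each array for the 15 factors with an adjusted p under 0.05, with open circles for the 3 DMSO arrays, filled circles for the 3 LY294002 arrays and lines for the group means. The groups did not overlap for any of these 15 factors, but the factors were picked by adjusted p on these same arrays, which favours separated groups. Heights are not comparable between genes, because each gene has its own probe.

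Within AP-1, FOSL2, JUND and JUNB rose. FOSL2, which encodes FRA2, a FOS protein without the strong activation domain of FOS, had signals of 8.52, 8.66 and 8.70 in DMSO and of 9.66, 9.57 and 9.62 in LY294002. All LY294002 arrays stood at least 0.87 above the DMSO arrays. The mean rose from 8.63 ± 0.10 to 9.62 ± 0.05 (SD, n = 3 each), a 1.99-fold change with an adjusted p of 0.00096. FOSL1, which encodes the related FRA1, had lower signals. Its signals were 6.79, 6.64 and 6.75 in DMSO and 6.39, 6.40 and 6.43 in LY294002. The groups did not overlap, but the decrease was 1.25-fold (log2 fold change -0.32, adjusted p = 0.0251) and stayed under the fold threshold.

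FOS itself, the immediate early member, had signals of 6.69, 7.13 and 7.18 in DMSO and of 7.51, 7.44 and 7.46 in LY294002. Every LY294002 array was higher than every DMSO array, and DMSO replicate 1 was the lowest. The log2 fold change of 0.47 (95% interval 0.15 to 0.79) had an adjusted p of 0.0686 and did not pass. Without DMSO replicate 1, 2 or 3 it was 0.32, 0.535 and 0.56. Over the 15 alternatives its adjusted p with limma or unmoderated variances ran from 0.0154 to 0.166, and FOS passed both thresholds in none. FOSB, a FOS relative that is also induced by growth factors, had a log2 fold change of -0.17 (95% interval -0.52 to 0.18), and its groups overlapped.

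The 3 JUN genes all had higher signals with LY294002. JUND, the JUN protein of resting cells, had signals of 6.71, 6.64 and 6.84 in DMSO and of 7.37, 7.36 and 7.38 in LY294002. The LY294002 arrays agreed within 0.02 and lay above all DMSO arrays. JUND rose 1.56-fold (log2 fold change 0.64, SE 0.07, adjusted p = 0.00306). JUNB, which often restrains JUN, had signals of 7.71, 7.78 and 8.10 in DMSO and of 8.49, 8.49 and 8.42 in LY294002. Its DMSO arrays were spread more widely (SD 0.21) than its LY294002 arrays (SD 0.04). JUNB rose 1.52-fold (log2 fold change 0.60, SE 0.11, adjusted p = 0.0172). It did not pass when the variances were not moderated (adjusted p = 0.0608), nor without DMSO replicate 2 (0.0609) or without LY294002 replicate 1, 2 or 3 (0.0572, 0.0627 and 0.0530).

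JUN, the founding member and main partner of FOS, had signals of 8.24, 8.18 and 8.26 in DMSO and of 8.62, 8.72 and 8.75 in LY294002. The groups were 0.36 apart, with an adjusted p of 0.00664. The log2 fold change of 0.47 (SE 0.07) lay just under the fold threshold, which it passed without DMSO replicate 3 (0.49) and without LY294002 replicate 1 (0.51). BATF and BATF3, inhibitory partners of JUN known from lymphocytes and dendritic cells, had overlapping groups with log2 fold changes of 0.06 and -0.20. Over the 9 AP-1 genes, 3 rose, 0 fell and 6 did not pass, with a median log2 fold change of 0.47.

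**Figure D2:**
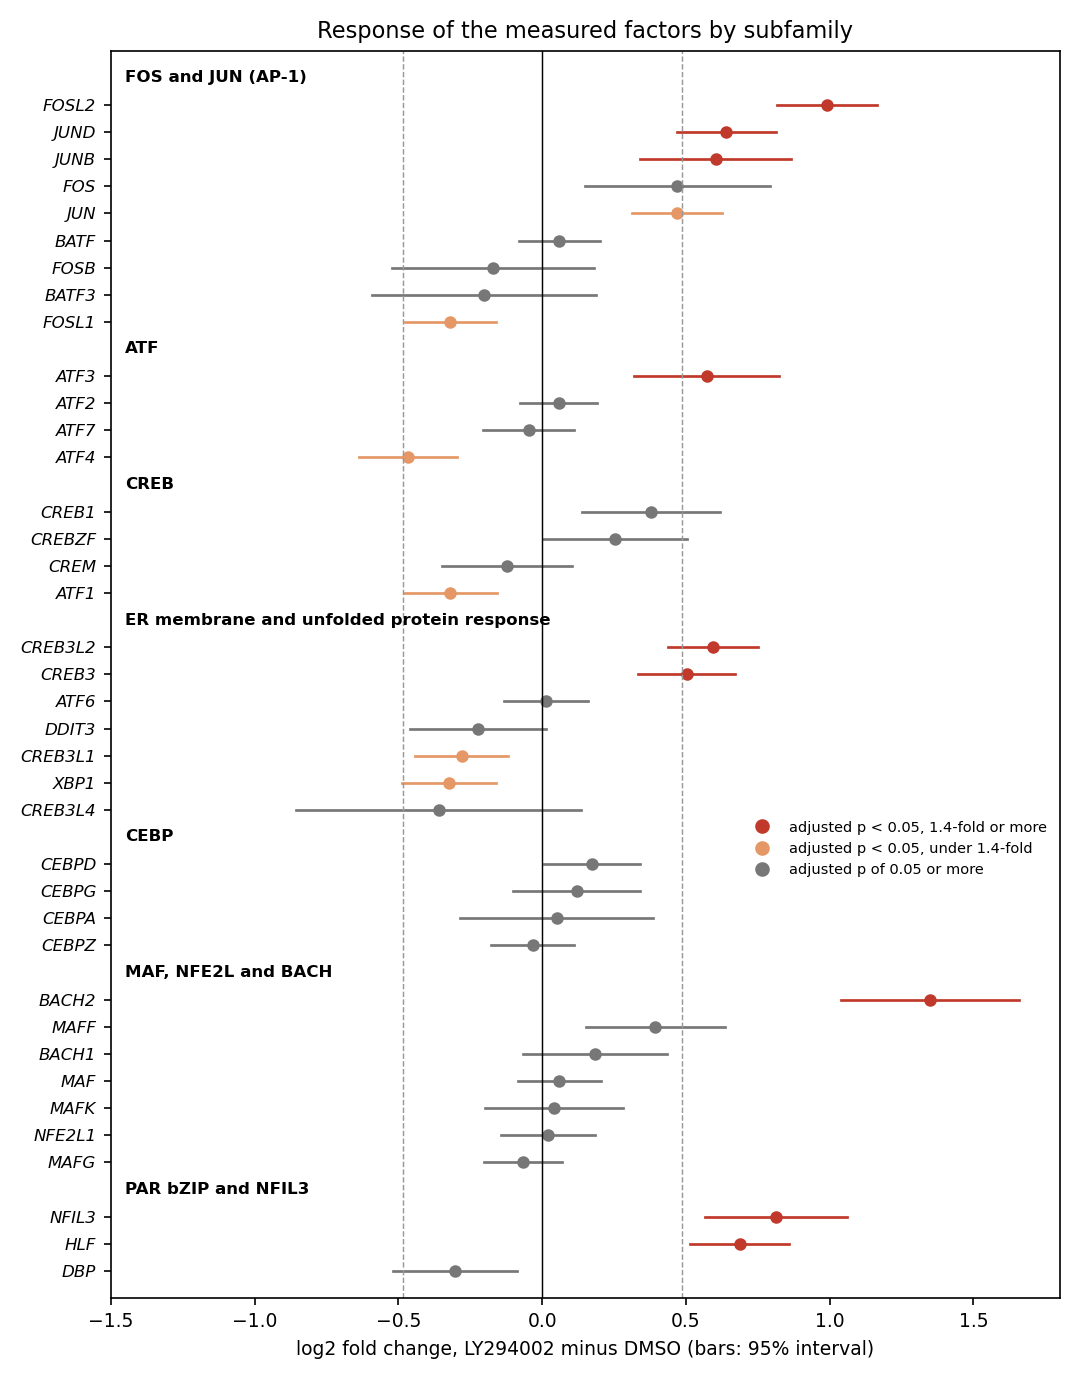
Log2 fold change of LY294002 over DMSO for the 38 measured factors by subfamily, with 95% intervals from limma; dashed lines mark 1.4-fold. The 9 factors in red rose, the 6 in orange had an adjusted p under 0.05 at a smaller change, and the 4 CEBP genes lay between -0.03 and 0.17.

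In the ATF group, ATF3 rose, and ATF4 had lower signals in all LY294002 arrays. ATF4, the transcription factor that induces amino acid synthesis and transport under stress, had signals of 10.27, 10.21 and 10.10 in DMSO and of 9.67, 9.75 and 9.76 in LY294002. The lowest DMSO array was 0.34 above the highest LY294002 array. The log2 fold change of -0.47 (SE 0.07, adjusted p = 0.00885) amounted to 1.38-fold, just under the fold threshold, and it passed without DMSO replicate 3 (-0.51). ATF3, a stress-induced repressor that is itself a known target of ATF4, had signals of 5.10, 5.35 and 5.08 in DMSO and of 5.90, 5.67 and 5.68 in LY294002. All 3 LY294002 arrays were higher. ATF3 rose 1.49-fold (log2 fold change 0.57, SE 0.11, adjusted p = 0.0174). It did not pass when the variances were not moderated (adjusted p = 0.0592), nor without DMSO replicate 1 or 3 (0.0587 and 0.0599) or without LY294002 replicate 1 (0.0503). ATF2 and ATF7, which are activated by stress kinases, had log2 fold changes of 0.06 (95% interval -0.08 to 0.19) and -0.05 (95% interval -0.20 to 0.11).

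Among the factors closest to CREB, none rose or fell with limma, while CREB1, CREBZF and ATF1 had an unadjusted p under 0.05. CREB1, the factor that PKA phosphorylates in response to FSH, had signals of 7.54, 7.82 and 7.85 in DMSO and of 8.15, 8.03 and 8.16 in LY294002. The groups did not overlap, and DMSO replicate 1 was the lowest array, as for FOS. The log2 fold change was 0.38 (95% interval 0.14 to 0.62, adjusted p = 0.0556). ATF1, a close relative and partner of CREB1, had signals of 8.22, 8.10 and 8.10 in DMSO and of 7.85, 7.76 and 7.85 in LY294002. All LY294002 arrays were lower, with a log2 fold change of -0.32 (adjusted p = 0.0268) that stayed under the fold threshold. CREM, whose short isoform ICER represses cAMP responses, had a log2 fold change of -0.12 (95% interval -0.35 to 0.10). The array value does not tell its isoforms apart. CREBZF, an atypical member that binds other factors, had a log2 fold change of 0.25 (95% interval 0.003 to 0.50, adjusted p = 0.177).

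Of the membrane-bound factors of the endoplasmic reticulum, CREB3L2 and CREB3 rose. CREB3L2, which drives secretory pathway genes after its release from the membrane, had signals of 9.13, 9.25 and 9.27 in DMSO and of 9.83, 9.82 and 9.78 in LY294002. The groups were 0.51 apart. CREB3L2 rose 1.51-fold (log2 fold change 0.59, SE 0.07, adjusted p = 0.00297). CREB3L1, its closest relative, had signals of 8.85, 8.73 and 8.89 in DMSO and of 8.53, 8.58 and 8.52 in LY294002. Its arrays were all lower with LY294002, with a log2 fold change of -0.28 (adjusted p = 0.0426) and 1.21-fold in size.

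CREB3, another membrane-bound member, had signals of 7.57, 7.57 and 7.58 in DMSO and of 8.16, 7.97 and 8.10 in LY294002. It rose 1.42-fold (log2 fold change 0.50, SE 0.07, adjusted p = 0.00664), the smallest change that passed. CREB3 was the only factor with a second probe of its own. On that dimmer probe the log2 fold change reached 0.22 (adjusted p = 0.0865), and the mean of both probes gave 0.36, under the fold threshold, as did the brighter probe without LY294002 replicate 1 (0.46). CREB3L4, a dim member, had overlapping groups and a log2 fold change of -0.36 with a wide 95% interval of -0.86 to 0.14.

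XBP1, a factor of the unfolded protein response whose mRNA is spliced by the sensor IRE1, had signals of 9.78, 9.87 and 9.95 in DMSO and of 9.57, 9.55 and 9.51 in LY294002. All LY294002 arrays were lower, and the log2 fold change of -0.32 (SE 0.07, adjusted p = 0.0272) stayed under the fold threshold. The signal sums spliced and unspliced mRNA and says nothing of the active form. ATF6, the membrane-bound sensor, had a log2 fold change of 0.01 (95% interval -0.13 to 0.16). A probe shared by ATF6 and CYP39A1 had one of 0.23 (adjusted p = 0.0684). DDIT3, the pro-apoptotic factor CHOP, had a log2 fold change of -0.22 (95% interval -0.46 to 0.01), and its groups overlapped.

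No CEBP gene passed the test. CEBPD, which is induced early by hormones and cytokines, had signals of 8.29, 8.40 and 8.47 in DMSO and of 8.58, 8.52 and 8.58 in LY294002. The groups were apart by 0.05 only, and the log2 fold change of 0.17 (95% interval 0.01 to 0.34) had an adjusted p of 0.171. CEBPA, CEBPG and CEBPZ had log2 fold changes of 0.05, 0.12 and -0.03, with overlapping groups. CEBPZ binds CCAAT boxes but carries no leucine zipper. Of the 4 CEBP genes, none passed with limma and 1, CEBPD, had an unadjusted p under 0.05. CEBPB, the member studied most in ovulation, is not analysed here.

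The largest fold change of the 38 factors was that of BACH2, a repressor that pairs with small MAF proteins and is known from B lymphocytes. BACH2 had signals of 4.97, 5.44 and 5.08 in DMSO and of 6.57, 6.42 and 6.55 in LY294002. Every LY294002 array was at least 0.98 above the DMSO arrays. The mean rose from 5.16 ± 0.25 to 6.51 ± 0.08 (SD, n = 3 each), a 2.55-fold change (log2 fold change 1.35, SE 0.13, adjusted p = 0.00179). BACH1, the heme-regulated repressor of HMOX1, had a log2 fold change of 0.18 (95% interval -0.07 to 0.43), and its groups overlapped.

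Among the MAF partners, MAFF, an inducible small MAF, had signals of 3.92, 3.60 and 3.93 in DMSO and of 4.23, 4.20 and 4.20 in LY294002. The groups were apart at a dim signal, and the log2 fold change of 0.39 (95% interval 0.15 to 0.64, adjusted p = 0.0506) did not pass. The other small MAF genes, MAFG and MAFK, had log2 fold changes of -0.07 and 0.04. MAF, the large MAF factor c-MAF, had one of 0.06. NFE2L1, which induces proteasome genes, had a log2 fold change of 0.02 (95% interval -0.14 to 0.18).

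In the clock output group, NFIL3 and HLF rose. NFIL3, a repressor that competes with PAR factors for their sites, had signals of 5.45, 5.42 and 5.22 in DMSO and of 6.16, 6.33 and 6.04 in LY294002. The groups were 0.59 apart. NFIL3 rose 1.76-fold (log2 fold change 0.81, SE 0.10, adjusted p = 0.00461). HLF, a PAR activator, had signals of 4.77, 4.89 and 4.94 in DMSO and of 5.55, 5.61 and 5.50 in LY294002. It rose 1.61-fold (log2 fold change 0.69, SE 0.07, adjusted p = 0.00242). DBP, another PAR activator, had signals of 5.62, 5.76 and 5.80 in DMSO and of 5.56, 5.31 and 5.40 in LY294002. Its groups were 0.06 apart, and the log2 fold change of -0.30 (95% interval -0.52 to -0.09) had an adjusted p of 0.0764.

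Some factors of the same subfamily had different changes on the same arrays. Others had like changes, among them JUN, JUNB and JUND (0.47, 0.60 and 0.64) and NFIL3 and HLF (0.81 and 0.69). The change of FOSL2 exceeded that of FOSL1 by 1.31 on the log2 scale. With each gene taken relative to its DMSO mean, the difference ranged from 1.27 to 1.37 over the 3 LY294002 arrays. Over the 3 DMSO arrays it ranged from -0.17 to 0.12. For CREB3L2 over CREB3L1 the excess was 0.87, for BACH2 over BACH1 1.17, for ATF3 over ATF4 1.04, for CREB1 over ATF1 0.70 and for NFIL3 over DBP 1.12. In each of these 6 pairs the ranges of the groups did not overlap. The pairs were chosen after their values were seen, so the differences are given without a test.

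**Figure D3:**
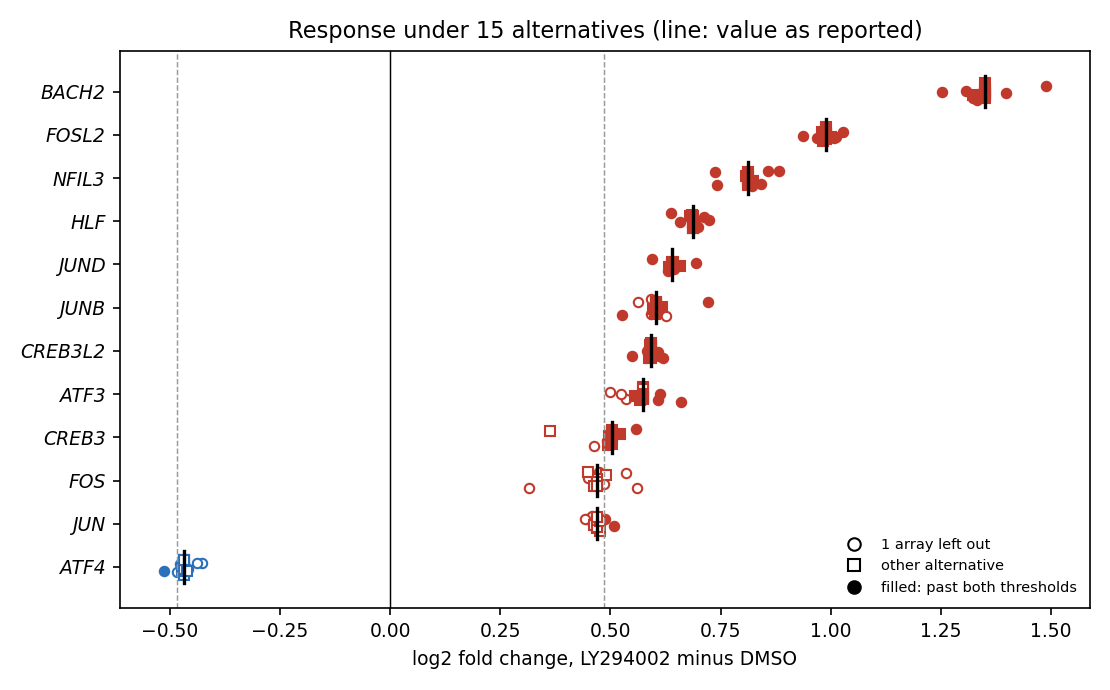
Log2 fold change of the 9 factors that rose and of FOS, JUN and ATF4 under 15 alternatives, with circles for settings that left out 1 array and squares for other settings; filled marks passed both thresholds and black lines give the reported values. BACH2, FOSL2, NFIL3, HLF, JUND and CREB3L2 stayed past both thresholds in all 15, whereas JUNB, ATF3 and CREB3 lost the call in some.

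Genes around the factors were counted in 10 lists, whose shares are to be read beside the 2.58% of all probes that rose and the 3.38% that fell, or 4.35% and 5.31% of the probes above the median signal. The lists overlap. NR4A1, NR4A2 and DUSP1 stand among both the immediate early and the cAMP genes, EREG and AREG among both the cAMP and the ovulatory genes, IL6 among AP-1 targets and ovulatory genes, SLC7A11 among ATF4 and NRF2 targets, and PER1 among cAMP and clock genes. Of 11 other bZIP genes, none passed both thresholds with limma. At an unadjusted p under 0.05 there were 2 higher and 0 lower, and the same 2 had an adjusted p under 0.05. These were CREBRF, a regulator of CREB3 (log2 fold change 0.36), and CREBL2 (0.32), both chosen after their values were seen. NFE2L2, which encodes NRF2, had one of 0.06 (adjusted p = 0.597). Of 22 upstream kinases and coactivators, 1 fell and 0 rose (5 higher at an unadjusted p under 0.05), with a median log2 fold change of 0.04. The share that fell, 4.55%, was near that of all probes. The one that fell was EIF2AK2, the kinase PKR that double-stranded RNA activates (-0.59, adjusted p = 0.0153). It did not pass when the variances were not moderated (0.0549), nor without DMSO replicate 1 or LY294002 replicate 1, 2 or 3.

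Of 18 measured immediate early genes outside the bZIP family, 5 rose (27.8%), 0 fell and 13 did not pass. With no adjustment, a p under 0.05 was reached by 10 higher and 0 lower genes. The count that rose was 3 without LY294002 replicate 1 or 2. EGR1, a zinc finger factor induced by ERK, rose from 8.38 to 9.39 (log2 fold change 1.02, adjusted p = 0.000984). KLF6 (0.81, adjusted p = 0.000987) and IER3 (0.78, adjusted p = 0.00219) rose as well. The median of the list was 0.28, compared with 0.02 over all probes.

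Of 11 measured genes known as AP-1 targets, 2 rose (18.2%), 1 fell (9.09%) and 8 did not pass, with a median log2 fold change of 0.18. CCND1, the G1 cyclin (0.66, adjusted p = 0.00456), and SPP1, the matrix protein osteopontin (0.53, adjusted p = 0.00635), rose. PLAU, the urokinase plasminogen activator, fell (-1.02, adjusted p = 0.00898). The count that fell was 2 without DMSO replicate 1.

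Of 13 measured genes linked to cAMP and CREB, 3 rose (23.1%), 1 fell (7.69%) and 9 did not pass, with a median log2 fold change of 0.00. EREG, an EGF-like factor of the ovulatory cascade, had signals of 4.11, 4.45 and 4.67 in DMSO and of 5.73, 5.73 and 5.64 in LY294002 and rose 2.45-fold (adjusted p = 0.00277). PDE4B, a cAMP phosphodiesterase (0.51, adjusted p = 0.0178), and NR4A1, an orphan nuclear receptor (0.50, adjusted p = 0.0192), rose. The rise of NR4A1 is also counted among the immediate early genes. Neither passed when the variances were not moderated, nor with any of DMSO replicates 1 and 2 and LY294002 replicates 1 and 2 left out, when the adjusted p reached 0.0628 for PDE4B and 0.0703 for NR4A1. CYP19A1, the aromatase gene, fell by 1.97 on the log2 scale. Of 10 ovulatory genes linked to CEBP factors, which share EREG and AREG with this list, 4 rose (the rise of EREG counted in both), 0 fell (1 lower at an unadjusted p under 0.05) and 6 did not pass, with a median of 0.25. PTX3, a cumulus matrix protein (1.48, adjusted p = 0.000593), and ADAMTS1, a protease of ovulation (0.82, adjusted p = 0.00115), were among those that rose.

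Of 18 measured ATF4 targets, 0 rose (1 higher at an unadjusted p under 0.05), 6 fell (33.3%) and 12 did not pass, and the median log2 fold change was -0.34. DDIT4, an inhibitor of mTORC1, fell by 1.13 on the log2 scale (adjusted p = 0.000987), VLDLR, a lipoprotein receptor, by 0.94 (adjusted p = 0.00497), and SLC7A5, an amino acid transporter, by 0.77 (adjusted p = 0.00168). TRIB3, PPP1R15A and PCK2, also known as ATF4 targets and chosen after their values were seen, had overlapping groups and log2 fold changes between -0.07 and -0.01. Of 16 measured targets of ATF6 and XBP1, 0 rose (0 higher also at an unadjusted p under 0.05), 1 fell and 15 did not pass. That 1 gene is 6.25% of the list, near the 5.31% of probes above the median signal. At any fold change 7 had an adjusted p under 0.05, all of them lower, which is 43.8% of the list beside 22.9% of the probes above the median signal. The median was -0.24. SDF2L1, a chaperone cofactor, was the one that fell (-0.49, adjusted p = 0.0257), but it did not pass when the variances were not moderated, under quantile normalization (-0.47), or with any of DMSO replicates 2 and 3 and LY294002 replicates 1 and 2 left out.

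Of 11 measured targets of NRF2 and its small MAF partners, 0 rose (1 higher at an unadjusted p under 0.05), 3 fell (27.3%) and 8 did not pass, with a median log2 fold change of -0.26. HMOX1, the heme oxygenase gene that BACH factors repress, had signals of 6.96, 6.95 and 7.14 in DMSO and of 6.45, 6.42 and 6.41 in LY294002 and fell by 0.59 on the log2 scale (adjusted p = 0.00448). NQO1, a quinone reductase (-0.54, adjusted p = 0.00874), and ABCC1, an export pump (-0.51, adjusted p = 0.0155), fell as well. ABCC1 did not pass with DMSO replicate 2, DMSO replicate 3 or LY294002 replicate 1 left out. GCLC and GCLM, the subunits of the enzyme that starts glutathione synthesis, chosen after their values were seen, had log2 fold changes of 0.04 and 0.02.

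Of 12 measured clock genes beside the PAR factors, 1 rose (8.33%), 2 fell (16.7%) and 9 did not pass, with a median log2 fold change of -0.07. ARNTL, which encodes the activator BMAL1, rose (0.52, adjusted p = 0.00394). The repressors BHLHE40 (-0.71, adjusted p = 0.00135) and BHLHE41 (-0.50, adjusted p = 0.0115) fell, the latter not without DMSO replicate 3 or LY294002 replicate 3. PER1, PER2 and PER3, chosen after their values were seen, lay between 0.02 and 0.07.

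**Figure D4:**
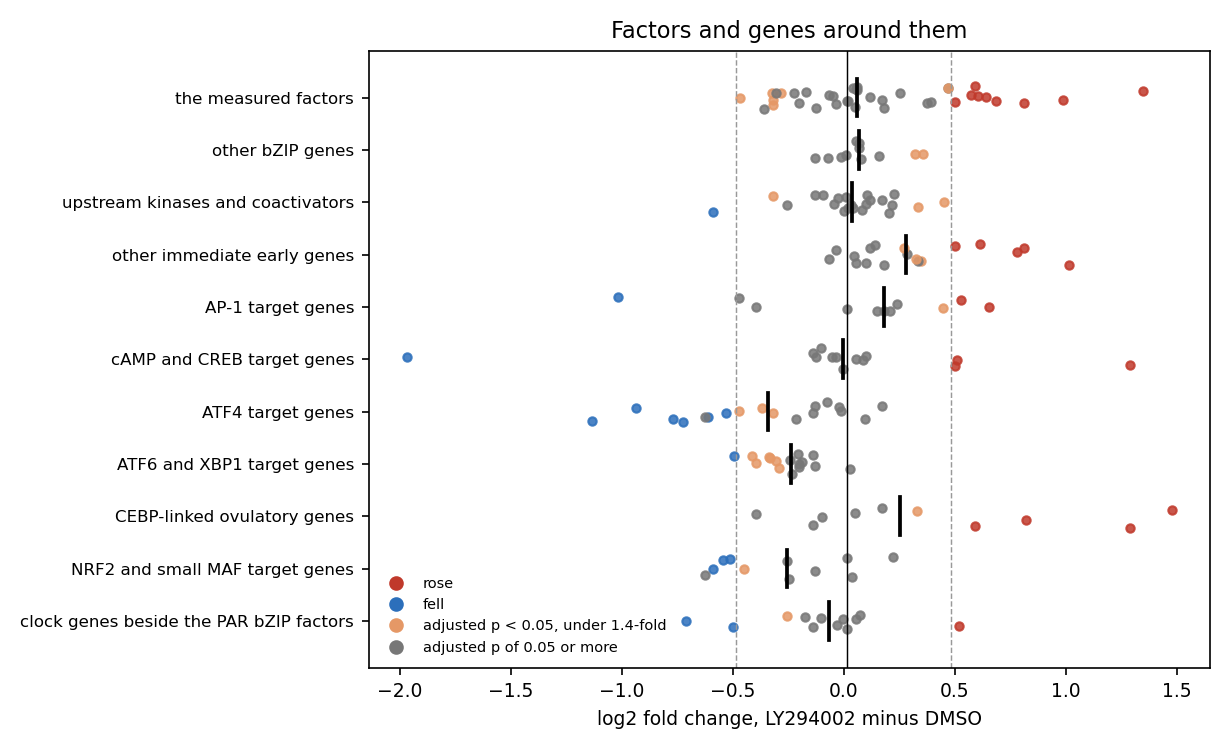
Log2 fold change of LY294002 over DMSO for the measured factors and for the genes of the 10 lists, 1 point per gene, with a thick bar at the median of each row, a thin line at the median of all probes and dashed lines at 1.4-fold. The medians ran from -0.34 for ATF4 targets to 0.28 for other immediate early genes.

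The arrays had median signals between 4.98 and 5.01, and Pearson's r across probes, which are not independent replicates, was 0.994 to 0.995 within groups and 0.988 to 0.989 between groups. Of 7 granulosa cell markers, FSHR, INHA and INHBA did not pass the test, NR5A2 rose, and FOXL2, CYP19A1 and AMH fell. Their summed linear signal was 5676 to 6063 in DMSO and 6067 to 6331 in LY294002. INHBA, with means of 11.70 in DMSO and 11.66 in LY294002, made up most of this sum. NR5A2 rose from 9.26 to 10.30, so the higher sum is not a shared rise of the markers. The summed signal of 4 theca cell markers was 281 to 372 in DMSO and 152 to 196 in LY294002. Most of this sum came from INSL3. Its mean log2 signal in DMSO was 8.22, beside 3.02 for CYP17A1, 3.52 for LHCGR and 4.04 for TCF21. Of these 4, INSL3 fell by 1.05 on the log2 scale, and the other three did not pass. LHCGR, which granulosa cells of larger follicles also express, was lower in all LY294002 arrays (log2 fold change -0.53, adjusted p = 0.0552), and TCF21 had overlapping groups (-0.14). The defining theca enzyme CYP17A1 was dim in both groups (3.02 and 2.98), with a log2 fold change of -0.04. None of the 5 leukocyte, 5 endothelial, 6 oocyte and 3 red blood cell markers passed the test with limma, and at an unadjusted p under 0.05 2 of these 19 did. The summed signals overlapped between groups for leukocytes (147 to 179 and 151 to 172), oocytes (59.1 to 67.4 and 61.2 to 65.1), red blood cells (31.1 to 37.9 and 34.1 to 41.2), and by a narrow margin for endothelial cells (104 to 112 and 95.4 to 104). The part of theca cells in the responses of the factors was not tested. In bulk RNA, fewer cells with a transcript and less transcript per cell cannot be told apart.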

How the data were processed

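RNA of 3 DMSO and 3 LY294002 samples of cultured bovine granulosa cells was hybridized by the authors to Bovine Gene 1.0 ST arrays and processed with the Transcriptome Analysis Console. The log2 values were deposited after RMA, a method of background correction, between-array normalization and summary by transcript cluster (here probe). The RMA version and the genome build are not given in the sources used here, and background correction could not be varied. The values have 2 decimals, and none of the 24415 probes was filtered out. Genes were named from the platform table, in which 18457 probes have 1 symbol, 688 several and 5270 none. No sequences were used here.

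Groups came from the sample titles and were compared with limma 3.58.1 (lmFit, eBayes; R 4.3.3) and no covariate, adjusted by Benjamini-Hochberg over all probes, with the thresholds of the methods (adjusted p under 0.05, 1.4-fold). The code was tested on simulated arrays with independent noise, which cannot show how a shared collection day would act on the calls. Text names every factor and up to 3 called genes of each list and direction with the largest change. Some list genes that were not called, such as NFE2L2, are named outside this rule. The factors and lists were chosen with earlier results of these data known. Alternatives were other variance models, the replicate number as a block, other normalizations, filters, weights, thresholds, the mean of a gene's probes and leaving out each array. The number of arrays limits the precision.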

Additional observations from a re-analysis of the deposited data

How the results depend on the processing

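Each factor was refitted under 15 alternatives, 570 values in all. Of these, 554 stayed on the same side of both thresholds, 13 lost the call, 3 gained it (JUN under 2 settings and ATF4 under 1) and 0 called values changed sign. Of the 9 factors that rose, 6 kept the call throughout, as did 16 of 23 named list genes. The count of risen factors ran from 7 to 9 under these alternatives. With the fold threshold dropped, 10 factors were higher. The labels do not say whether samples with the same replicate number share a collection day. Their deviations from the group means correlated at -0.04, -0.02 and -0.03, which cannot settle this with 3 arrays per group. With the number as a replicate block, 7 factors rose, and JUNB (adjusted p = 0.0569), ATF3 (0.0606), EIF2AK2, PDE4B, NR4A1 and NQO1 (0.0506) lost their calls. The block gave counts of 0 for kinases that fell and 1 for cAMP and CREB genes that rose.

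At any fold change, 1489 probes were higher and 1760 lower. The counts of lower factors became 5, of higher bZIP genes and kinases 2 each, of lower kinases 2, of higher immediate early genes 8 and of lower ATF6 and XBP1 targets 7. At 1.5-fold, 1 AP-1 target, 1 cAMP gene and 0 clock genes rose, and 1 NRF2 target, 1 clock gene and 0 ATF6 and XBP1 targets fell. Without moderation of the variances, 3 immediate early genes and 1 cAMP gene rose, and 0 kinases and 0 ATF6 and XBP1 targets fell, nor did any of the latter under quantile normalization (0). Leaving out 1 array gave 0 to 1 factors that fell (ATF4 without DMSO replicate 3), 0 to 1 kinases that fell, 3 to 5 immediate early genes that rose, 1 to 2 AP-1 targets that fell, 1 to 3 cAMP genes that rose, 0 to 1 ATF6 and XBP1 targets that fell and 1 to 2 clock genes that fell. The causes of these shifts were not tested. Centring or quantile normalization left the median of all probes at 0.01. Without detection calls, whether the dimmest factors (MAFF, CREB3L4) were above background was not tested. Nor was it tested for the risen factors HLF, BACH2, ATF3 and NFIL3 in DMSO. Their DMSO means were 4.87, 5.16, 5.18 and 5.36, beside array medians of 4.98 to 5.01. The same limit holds for called list genes with a mean under these medians. These were PDE4B in both groups (4.18 in DMSO and 4.69 in LY294002), EREG in DMSO (4.41) and PLAU in LY294002 (4.56).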
